A study of Homo sapiens with 12 samples.

Results

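The response to B cell receptor engagement was measured in the diffuse large B cell lymphoma line U-2932, in cells that stably expressed wild-type (WT) Roquin2. The 6 libraries are those labelled WT, of 12 in the series, and were chosen by genotype and treatment alone. Of them, 3 came from untreated cells and 3 from cells given F(ab')2-IgM, an antibody fragment that crosslinks surface IgM, at 10 µg/ml for 12 h. Both groups carried the same introduced WT Roquin2, so by their labels they differed in the treatment. Cells without an introduced Roquin2 were not among them. The other 6 libraries, 3 untreated and 3 with IgM, came from U-2932 cells stably expressing the Y691F form of Roquin2. The submitters describe the replicates as independent biological ones; whether each construct was carried by 1 clone or by a pool of cells is not stated in the labels. Of 60675 genes in the deposited table, 30061 had a count in any library and 15112 had enough counts to be tested.

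Engagement of the B cell receptor brings the kinases LYN, SYK and BTK to the signalling chains CD79A and CD79B, and opens calcium, ERK, PI3K and NF-kB signalling. In normal B cells this leads within minutes to hours to immediate early transcription factors, and later to growth, chemokine secretion, migration toward T cells and either proliferation, differentiation or death. Roquin2, encoded by RC3H2, and its relative Roquin1, encoded by RC3H1, bind stem-loops in mRNAs and recruit the decay machinery, and several of the known targets belong to the same activation programme.

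The libraries held 16496168 to 21478790 counts in the untreated cells and 16465393 to 19392749 with IgM. Replicates lay close together: the biological coefficient of variation was 2.51%, and every pair of replicates still differed by more than counting noise (chi-square over degrees of freedom 1.43 to 1.86). IGHM, the heavy chain of the engaged receptor, was among the highest B cell genes, at 9853 CPM untreated and 8085 CPM with IgM, where CPM is the count scaled to a common library size with TMM, a correction for library composition. Of the B lineage markers, MS4A1 (CD20), CD79A, CD22 and PAX5 each exceeded 200 CPM in every WT library. Not all 15 in the list were high: FCER2, the 1 untested member, had 20 counts over the 6 WT libraries. Of the 14 tested, 3 were higher and 11 lower with IgM. The list's summed level was 6368 to 6496 CPM untreated and 4508 to 4563 CPM with IgM. Myeloid markers were near 0, with S100A8 and S100A9 at 0 counts and only CD14 testable of 15, and their summed level was 1.70 to 1.96 CPM untreated and 1.38 to 1.94 CPM with IgM. Among T and NK cell markers 8 of 20 were testable. CD3D had 0 counts, CD3G 1 and CD3E 14 over the 6 WT libraries, but the T cell receptor constant segments TRBC2 (3.27), TRBC1 (3.03) and TRAC (1.34) rose on the log2 scale, and the list's summed level was 56.8 to 59.5 CPM untreated and 125 to 137 CPM with IgM. Of 14 fibroblast and epithelial markers 5 were testable, and their summed level was 26.0 to 26.6 CPM untreated and 22.4 to 24.4 CPM with IgM, most of it EPCAM. The part of any other cell type in the results was not tested. In bulk RNA, a change in the number of cells of one state and a change in RNA per cell cannot be told apart.

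IgM moved most of the measurable transcriptome. In edgeR's quasi-likelihood test with Benjamini-Hochberg adjustment over all 15112 genes, 11623 genes (76.9%) passed an adjusted p of 0.05, of which 5809 (38.4%) were higher and 5814 (38.5%) lower with IgM. The groups of 3 did not overlap in 11201 of these 11623 genes. Most changes were modest, with a median size of 0.67 on the log2 scale among called genes, so counts of called list members are read below against these shares and against the list's median change. At least 2-fold changes were fewer and unequal in number: 1346 genes (8.91%) were higher and 2393 (15.8%) lower. The rises nevertheless carried more reads, since genes at least 2-fold higher went from 3.88 to 3.90% of all counts untreated to 11.4 to 11.5% with IgM, and genes at least 2-fold lower went from 8.55 to 8.65% to 2.63 to 2.67%. At least 10-fold changes were found for 183 higher and 216 lower genes. Scaling by library totals alone shifted the median of all genes from 0.0016 to -0.13 on the log2 scale and left 4642 genes higher and 6776 lower, which is 40.7% against 49.98% higher of those called, so directions are relative to the bulk of the transcriptome.

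**Figure D1:**
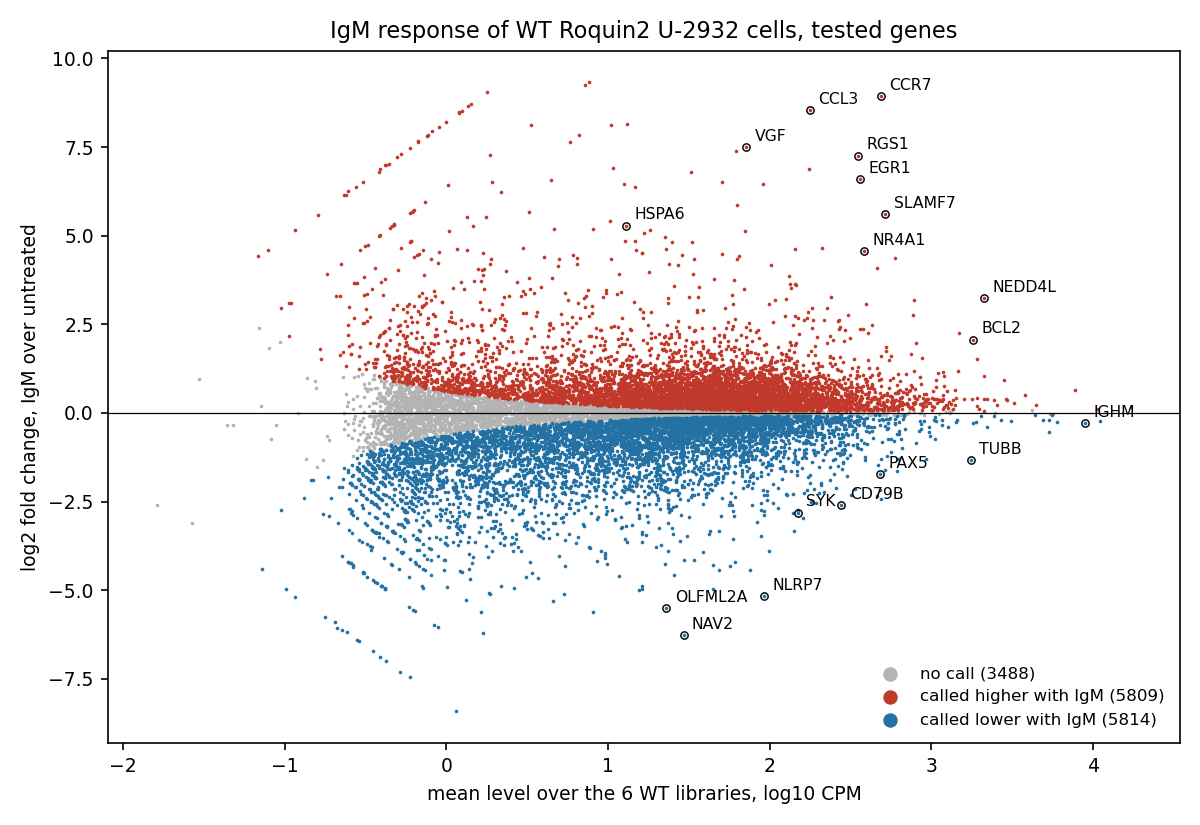
Change with IgM against abundance for the 15112 tested genes of the WT cells. The x axis is the mean level over the 6 libraries as log10 CPM and the y axis the log2 change, IgM over untreated; red points were called higher (5809) and blue points lower (5814) at an adjusted p of 0.05, and grey points were not called. The 1 tested gene with no count in the WT libraries is not drawn, genes with few counts are drawn at fitted values (the diagonal streaks at the left), and the labelled CCR7, CCL3 and NAV2 lie at the outer edges.

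The largest rises included a lymph node homing receptor, a chemokine, an inhibitory receptor and secreted factors. CCR7 (ENSG00000126353, chromosome 17, 40553769 to 40565472, minus strand; coordinates here are on GRCh38 as deposited), the receptor that guides lymphocytes toward lymph node T cell zones, measured 2.28, 1.96 and 1.66 CPM in the untreated libraries and 979.9, 994 and 951 CPM with IgM. The groups were far apart, with a 492-fold difference (log2 8.94, SE 0.056, adjusted p = 1.71e-99). CCL3 (ENSG00000277632, chromosome 17, 36088256 to 36090169, minus strand), a chemokine that attracts T cells and monocytes, measured 0.901, 1.34 and 0.516 CPM in the untreated libraries and 360.2, 349.8 and 356 CPM with IgM (log2 8.53, SE 0.071, adjusted p = 1.19e-89). PDCD1 (ENSG00000188389, chromosome 2, 241849881 to 241858908, minus strand), which encodes the inhibitory receptor PD-1, went from 5 counts over the 3 untreated libraries to 26.0 ± 2.04 CPM with IgM (log2 8.14, SE 0.20, adjusted p = 7.24e-55). VGF, a secreted neuropeptide precursor, rose from 0.788 ± 0.0693 to 143 ± 2.05 CPM (log2 7.498, SE 0.091, adjusted p = 9.07e-70), and GEM, a small GTPase that restrains calcium channels, from 0.732 ± 0.0863 to 123 ± 4.06 CPM (log2 7.38, SE 0.088, adjusted p = 5.95e-78). TVP23A, a Golgi membrane protein gene, rose from 0.0707 ± 0.0383 to 20.7 ± 0.793 CPM (log2 8.12, SE 0.22, adjusted p = 6.67e-51). In each of these 6 genes the lowest IgM library lay above the highest untreated one, which the rule that chose them required.

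The largest falls were of genes of varied function, among them a neuron navigator, a sphingomyelinase and adhesion molecules. NAV2 (ENSG00000166833, chromosome 11, 19350724 to 20121598, plus strand), a neuron navigator gene, measured 57.6, 57.4 and 58.7 CPM in the untreated libraries and 0.718, 0.594 and 0.956 CPM with IgM (log2 -6.26, SE 0.11, adjusted p = 4.45e-65). NLRP7, an inflammasome-related gene, measured 184, 179 and 177 CPM in the untreated libraries and 5.27, 4.32 and 5.48 CPM with IgM (log2 -5.17, SE 0.061, adjusted p = 5.81e-78). WNK2, a kinase of the lysine-deficient family, fell from 87.0 ± 3.55 to 2.78 ± 0.173 CPM (log2 -4.97, SE 0.082, adjusted p = 1.34e-63), and OLFML2A, an olfactomedin-like extracellular protein gene, from 44.9 ± 0.266 to 0.981 ± 0.0723 CPM (log2 -5.51, SE 0.11, adjusted p = 9.04e-60). In each of these 4 genes the highest IgM library lay below the lowest untreated one, which their choice likewise required. Further falls of this size were PDZRN4 (-4.98), SMPD3 (-4.97), a neutral sphingomyelinase, SYT9 (-5.10), ADGRB2 (-5.08), CEACAM1 (-4.95), SUSD3 (-4.89), LZTS1 (-4.88) and the lambda variable segment IGLV6-57 (-5.62). Reads of immunoglobulin segments can be shared among near-identical copies.

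The largest rises by abundance were in genes of varied function. NEDD4L (ENSG00000049759, chromosome 18, 58044367 to 58401540, plus strand), a ubiquitin ligase that limits sodium channels and growth factor signalling, gained the most, from 402 ± 8.66 to 3827 ± 96.0 CPM (log2 3.25, SE 0.029, adjusted p = 4.86e-87). BCL2 (ENSG00000171791, chromosome 18, 63123346 to 63320128, minus strand), the antiapoptotic gene of follicular lymphoma, measured 697, 696 and 691.3 CPM in the untreated libraries and 2888, 2971 and 2888 CPM with IgM (log2 2.07, SE 0.028, adjusted p = 2.96e-74). Also among the 10 largest gains at 2-fold or more were the endoplasmic reticulum chaperones HSPA5 and HSP90B1, the amino acid transporter SLC7A5, the ferritin light chain FTL (1.06), the autophagy adaptor SQSTM1 (3.18), the fatty acid synthase FASN (1.17), the phosphatase DUSP2 and the surface receptor SLAMF7. FTL rose from 1370.5 ± 60.0 to 2849.7 ± 33.7 CPM, and SQSTM1 from 156 ± 7.53 to 1411 ± 14.7 CPM. The groups did not overlap for any of the 10, a condition of their choice.

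The largest losses by abundance were also in genes of varied function. TUBB, a beta tubulin, fell from 2500.0 ± 54.6 to 993 ± 6.38 CPM (log2 -1.33, SE 0.027, adjusted p = 4.12e-60), and PVRL1, the adhesion molecule nectin-1, from 1314 ± 34.3 to 538 ± 5.33 CPM (log2 -1.29, SE 0.029, adjusted p = 1.71e-57). ATP2A3, the endoplasmic reticulum calcium pump of lymphoid cells, measured 844, 813 and 825 CPM in the untreated libraries and 151, 152 and 157 CPM with IgM (log2 -2.43, SE 0.031, adjusted p = 4.74e-76). CSK, the kinase that holds SRC-family kinases inactive, fell from 927 ± 25.4 to 298 ± 7.25 CPM (log2 -1.64, SE 0.029, adjusted p = 1.81e-64). The others were CNN2 (-2.33), EML6 (-2.17), LRRK1 (-1.62), the E-protein gene TCF4 (-1.29), PAX5 (-1.72) and ARHGDIB (-1.46). All 10 had every IgM library below every untreated one, again a condition of their choice.

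A set of genes was at or near 0 in one group, so that only a bound or a ratio with its counting interval can be given. In these the bound is set against 3 counts over the 3 libraries, and the interval covers counting error only. TRPM4, a sodium-permeable channel opened by calcium, had 0 counts untreated and 182 with IgM, at least 70.0-fold higher. DGKI, a diacylglycerol kinase, was at least 55.4-fold higher, and PPARGC1A, a coactivator of mitochondrial genes, at least 48.5-fold higher. ADAMTS3, a procollagen protease, and BSND, a chloride channel subunit, also had 0 counts untreated and were at least 46.9-fold and at least 46.6-fold higher. DUSP4, a nuclear ERK phosphatase, had 1 count untreated and 778 with IgM (ratio 898, 95% interval 161 to 35519). GJA3, a connexin, had 1 and 339 counts (ratio 391, 95% interval 69.8 to 15502), CD109 had 3 and 672 (ratio 259, 95% interval 88.1 to 1257), and GDF15, a stress-induced cytokine, 3 and 594 (ratio 229, 95% interval 77.8 to 1112). The intervals of these 4 ratios are wide and all lie far above 1. On the other side, PRR15L had 135 counts untreated and 0 with IgM, at least 39.0-fold lower, and ACKR3, an atypical chemokine receptor, 62 and 0, at least 17.9-fold lower. PRELP (ratio 85.8, 95% interval 23.4 to 713), CDC42BPB (ratio 43.3, 95% interval 14.5 to 212) and the adhesion receptor PECAM1 (ratio 64.1, 95% interval 11.2 to 2566), with ratios given as untreated over IgM, were down to 3 counts or fewer.

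Immediate early genes, the transcription factors and cofactors switched on first by receptor signals, were higher after 12 h with IgM. Of 30 written in the list, 27 were testable and all 27 were higher, 21 of them by 2-fold or more, with a median change of 2.51 on the log2 scale against 0.0016 over all tested genes. With library totals alone 25 of the 27 were called higher and 0 lower. EGR1 (ENSG00000120738, chromosome 5, 138465490 to 138469315, plus strand), a zinc finger factor of the ERK pathway, measured 8.06, 7.08 and 7.17 CPM in the untreated libraries and 725, 702 and 719.8 CPM with IgM (log2 6.59, SE 0.049, adjusted p = 1.19e-89). NR4A3 (ENSG00000119508, chromosome 9, 99821855 to 99866891, plus strand), an orphan nuclear receptor, measured 2.76, 2.98 and 3.16 CPM in the untreated libraries and 359, 321 and 362 CPM with IgM (log2 6.87, SE 0.063, adjusted p = 8.88e-78). Its relative NR4A1 rose from 31.1 ± 1.15 to 737 ± 34.9 CPM (log2 4.57, SE 0.040, adjusted p = 6.82e-83). EGR2 (4.95), EGR3 (4.52), the EGR corepressor NAB2 (4.17) and IER2 (3.52) rose as well, and EGR4 went from 3 to 62 counts (ratio 23.9, 95% interval 7.79 to 119). MYC was near the lower end of the list, at 12.1 ± 0.521 to 19.0 ± 1.01 CPM (log2 0.66, SE 0.078, adjusted p = 3.56e-12). In the 27 genes, the lowest change was still a rise, and 16 also differed in response from the Y691F cells, as described at the end.

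The list of ERK feedback genes and related phosphatases followed the same direction, with 16 higher and 3 lower of 19 tested genes and a median of 1.63. DUSP2 (ENSG00000158050, chromosome 2, 96143166 to 96145440, minus strand), a nuclear phosphatase that inactivates ERK, measured 57.5, 51.8 and 56.9 CPM in the untreated libraries and 1167, 1106 and 1133 CPM with IgM (log2 4.36, SE 0.045, adjusted p = 2.75e-39). DUSP5 rose from 2.27 ± 0.0861 to 63.7 ± 1.23 CPM (log2 4.81, SE 0.085, adjusted p = 5.20e-65), DUSP10 by 3.56, DUSP16 by 3.59, and PHLDA1 by 5.07 on the log2 scale. DUSP1, the classic early phosphatase, rose less, from 3.22 ± 0.233 to 10.96 ± 1.76 CPM (log2 1.75, SE 0.13, adjusted p = 9.55e-22). The windows shown are the promoters of DUSP2 and VGF, which were among the most induced genes by abundance and by fold and whose letters hold the motif of EGR factors (GCGNGGGCG) and the cyclic AMP response element (TGACGTCA). Each runs from 250 bases before to 50 bases after the start of the gene in RefSeq on GRCh38.p14, is written 5′ to 3′ on the gene's strand, and has the motif in capitals, whichever strand it matched.
DUSP2, chr2:96145391-96145690, minus strand: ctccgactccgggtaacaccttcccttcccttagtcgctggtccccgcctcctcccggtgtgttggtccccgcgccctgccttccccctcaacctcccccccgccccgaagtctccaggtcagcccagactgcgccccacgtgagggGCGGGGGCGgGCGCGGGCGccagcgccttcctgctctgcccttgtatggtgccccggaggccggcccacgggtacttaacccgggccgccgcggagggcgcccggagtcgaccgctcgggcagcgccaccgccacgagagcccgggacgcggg
VGF, chr7:101165520-101165819, minus strand: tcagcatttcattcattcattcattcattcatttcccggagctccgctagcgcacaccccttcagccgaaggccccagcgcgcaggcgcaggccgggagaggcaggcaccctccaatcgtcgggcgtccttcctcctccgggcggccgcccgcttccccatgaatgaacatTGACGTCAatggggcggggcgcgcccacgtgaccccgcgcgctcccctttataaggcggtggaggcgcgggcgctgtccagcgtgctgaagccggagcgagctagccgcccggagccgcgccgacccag
The DUSP2 window held 2 EGR matches that do not overlap, beginning 103 and 93 bases before the start, and 9.43% of all 35116 windows of that length held at least 1. The VGF window held 1 match to the response element, 79 bases before the start, against 1.85% of all windows. Among windows of tested protein-coding genes the shares were 15.2% and 3.43%. Both windows were picked because they hold these motifs, so the shares are a background only. A match is a description of these letters, and no binding was measured.

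**Figure D2:**
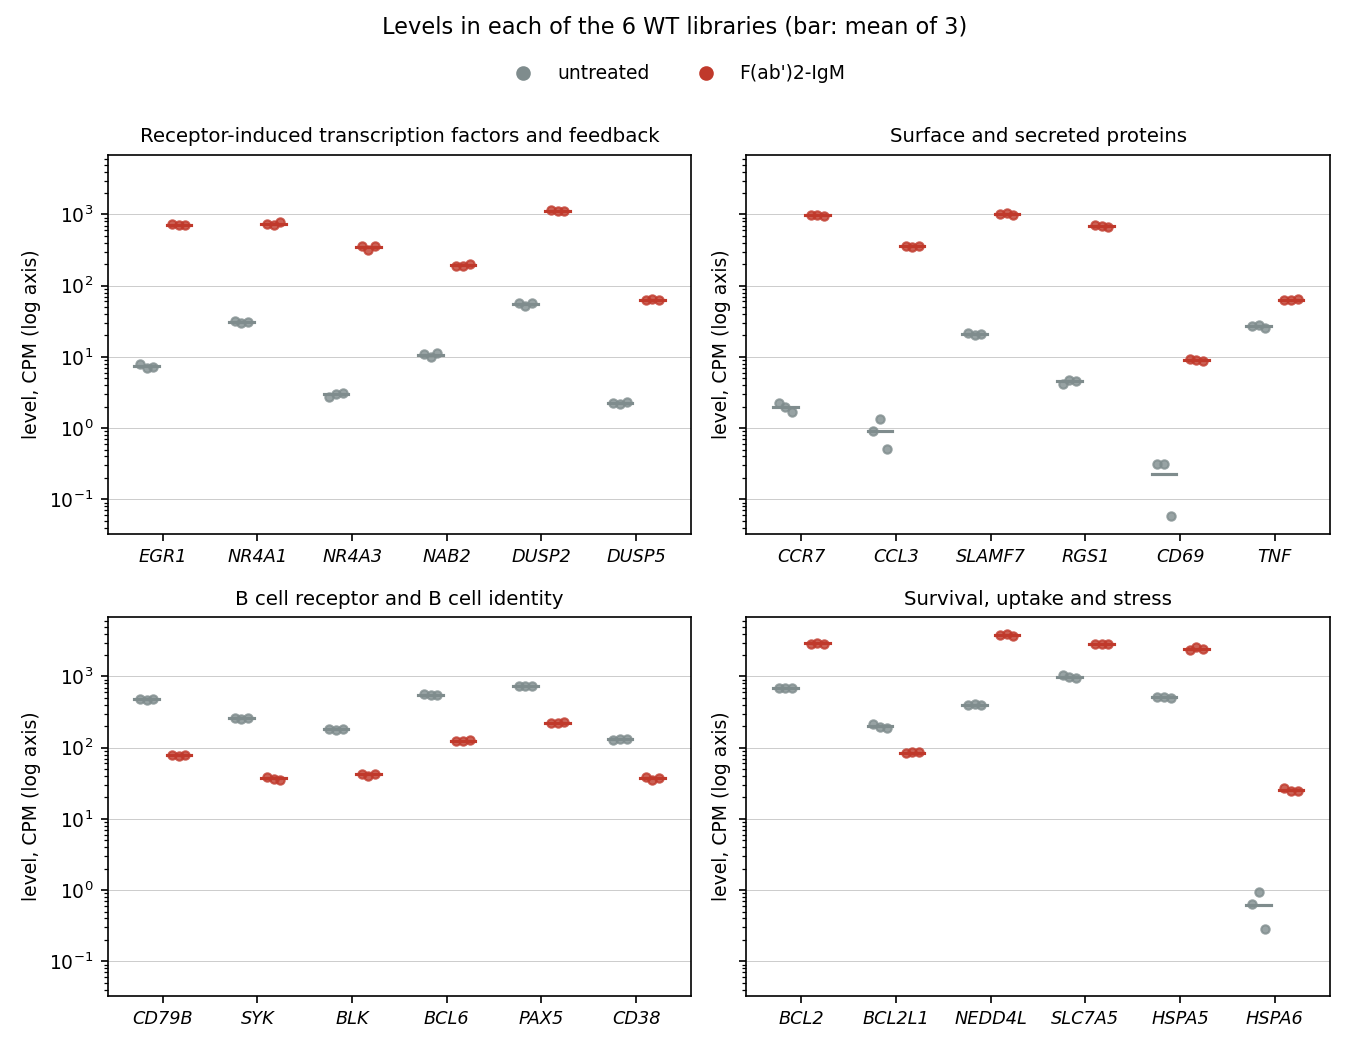
CPM (TMM-scaled, log axis) of selected genes in each of the 6 WT libraries, 3 untreated and 3 with IgM; each point is 1 library. Bars mark the mean of 3. For each gene drawn, the 3 libraries of one group lie on one side of the 3 of the other.

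Genes of the NF-kB pathway went both ways. Subunits and inhibitors counted 17 higher and 9 lower of 30 tested, with a median of 0.28. NFKB1, the p105 and p50 subunit, rose from 140.3 ± 1.59 to 666 ± 5.84 CPM (log2 2.25, SE 0.030, adjusted p = 7.55e-74), REL, the c-Rel subunit of activated lymphocytes, from 90.8 ± 1.89 to 358 ± 15.7 CPM (log2 1.98, SE 0.035, adjusted p = 2.86e-62), and the inhibitor NFKBIE from 74.6 ± 0.533 to 459 ± 3.57 CPM (log2 2.62, SE 0.033, adjusted p = 4.11e-76). RELA (0.57) and NFKB2 (0.74) rose by less. IKBKE, a noncanonical kinase of the pathway, went the other way, from 243 ± 2.43 to 34.1 ± 0.914 CPM (log2 -2.84, SE 0.039, adjusted p = 5.94e-73). Among effectors, 15 higher and 11 lower of 27 were called, with a median of 0.98. The dendritic and B cell activation antigen CD83 rose from 117 ± 4.26 to 508 ± 8.44 CPM (log2 2.12, SE 0.032, adjusted p = 2.67e-70) and the survival gene BCL2A1 from 58.4 ± 1.93 to 162 ± 4.25 CPM (log2 1.47, SE 0.038, adjusted p = 2.54e-52). BCL2L1, which encodes BCL-XL, fell from 199.8 ± 11.5 to 85.5 ± 2.46 CPM (log2 -1.22, SE 0.038, adjusted p = 1.36e-43).

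Of 18 chemokines, 9 were testable, with 7 higher and 1 lower and a median of 4.83, or 3.94 when a gene at 0 counts is set at its bound. Enough counts in a single group made a gene testable, so genes near 0 untreated, such as CXCL8, entered through libraries where they were high. That favours rises in this share and median. CCL4 rose from 0.273 ± 0.0121 to 24.7 ± 0.933 CPM (log2 6.46, SE 0.16, adjusted p = 4.44e-54). Their copies CCL3L3 (6.79) and CCL4L2 (4.83) can share reads with CCL3 and CCL4, so how reads split among them is uncertain. CCL22, a ligand of CCR4 on T cells, rose from 2.87 ± 0.153 to 9.85 ± 0.267 CPM (log2 1.78, SE 0.13, adjusted p = 8.88e-23), CCL17, the other CCR4 ligand, fell from 1.58 ± 0.213 to 0.239 ± 0.0701 CPM (log2 -2.70, SE 0.37, adjusted p = 4.99e-10), and CXCL8 went from 0 to 40 counts, at least 15.4-fold higher. CXCL16 did not pass the test.

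TNF ligands and receptors were split, with 13 higher and 9 lower of 22 tested and a median of 0.86. TNFSF14 (0 to 43 counts) and TNFRSF9 (0 to 7 counts) had none untreated, and the filter favours rises among such genes. In a fit of the 6 WT libraries alone 20 members were tested, with 11 higher and 9 lower. TNF itself rose from 26.9 ± 1.495 to 63.8 ± 1.35 CPM (log2 1.24, SE 0.052, adjusted p = 2.35e-37) and LTA, lymphotoxin alpha, from 34.4 ± 1.64 to 111 ± 5.23 CPM (log2 1.69, SE 0.045, adjusted p = 9.20e-52). LTB fell from 54.5 ± 0.523 to 20.7 ± 0.601 CPM (log2 -1.40, SE 0.055, adjusted p = 3.30e-39). The receptors TNFRSF14 (HVEM, 3.78), TNFRSF10D (a decoy receptor for TRAIL, 3.41), TNFRSF18 (GITR, 3.06) and TNFRSF1B (TNFR2, 2.86) rose. CD27, the receptor of memory and germinal center B cells, fell from 109.7 ± 5.02 to 9.40 ± 0.202 CPM (log2 -3.54, SE 0.059, adjusted p = 5.06e-67), and TNFRSF17 (BCMA) from 104 ± 5.62 to 30.4 ± 1.44 CPM (log2 -1.78, SE 0.048, adjusted p = 4.23e-50).

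Cytokine genes gave 12 testable of 26, with 6 higher and 3 lower. VEGFA, the vascular growth factor, rose from 45.6 ± 1.29 to 294 ± 4.88 CPM (log2 2.69, SE 0.039, adjusted p = 8.80e-72) and TGFB1 from 68.7 ± 1.40 to 201 ± 8.37 CPM (log2 1.55, SE 0.037, adjusted p = 1.10e-54). IL10 stayed low, at 1.13 ± 0.177 to 2.23 ± 0.251 CPM (log2 0.98, SE 0.22, adjusted p = 5.06e-05). IL16, a chemoattractant stored in lymphocytes, fell from 125 ± 2.36 to 31.9 ± 0.112 CPM (log2 -1.97, SE 0.043, adjusted p = 8.41e-58). Among cytokine receptors and STAT regulators, 19 higher and 8 lower of 31 were called with a median of 0.26. The chains of the interleukin-2 receptor all rose: IL2RB from 0.972 ± 0.121 to 35.1 ± 0.488 CPM (log2 5.17, SE 0.11, adjusted p = 2.11e-57), IL2RG by 2.01 and IL2RA by 2.07 on the log2 scale. SOCS3, the feedback inhibitor of STAT3 signals, rose from 0.0870 ± 0.0627 to 8.80 ± 0.861 CPM (log2 6.58, SE 0.26, adjusted p = 1.44e-38), STAT3 by 1.48, and IL4R fell by 1.03.

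Receptors and regulators of migration went both ways, with 11 higher and 8 lower of 21 tested and a median of 0.12 that turned to -0.014 with library totals alone. CCR7 was described above. RGS1 (ENSG00000090104, chromosome 1, 192575727 to 192580031, plus strand), which dampens chemokine receptor signals in B cells, measured 4.19, 4.76 and 4.65 CPM in the untreated libraries and 717, 694 and 675 CPM with IgM (log2 7.26, SE 0.051, adjusted p = 1.75e-95). RGS2 rose from 24.6 ± 0.512 to 227 ± 9.10 CPM (log2 3.21, SE 0.045, adjusted p = 4.98e-69). CD69, an early activation antigen that retains cells in tissue, rose from 0.229 ± 0.149 to 8.99 ± 0.371 CPM (log2 5.20, SE 0.23, adjusted p = 2.99e-36), and CXCR5, the follicle homing receptor, from 581 ± 14.0 to 836 ± 16.2 CPM (log2 0.52, SE 0.028, adjusted p = 3.54e-30). The germinal center confinement receptor P2RY8 fell from 214 ± 5.17 to 79.2 ± 4.78 CPM (log2 -1.43, SE 0.036, adjusted p = 3.96e-53) and the cannabinoid receptor CNR2 from 37.1 ± 0.904 to 2.69 ± 0.116 CPM (log2 -3.78, SE 0.094, adjusted p = 1.42e-53). CXCR3, at 81 counts untreated, was down to 3 (ratio 23.4, 95% interval 7.72 to 116, untreated over IgM). CXCR4 moved little (log2 -0.17, SE 0.039, adjusted p = 8.27e-05).

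Adhesion genes likewise went both ways, 9 higher and 13 lower of 26 tested. ITGB7, the integrin chain of gut homing, fell from 108 ± 3.05 to 5.42 ± 0.262 CPM (log2 -4.32, SE 0.065, adjusted p = 3.12e-70), and the tetraspanins CD82 (-2.89), CD81 (-1.40) and CD37 (-1.39) fell. CD44, the hyaluronan receptor, rose from 55.6 ± 1.20 to 180.4 ± 2.15 CPM (log2 1.70, SE 0.038, adjusted p = 1.60e-57), CD48, a SLAM-family ligand, by 2.40, and the integrin chain ITGA4 by 1.10 on the log2 scale. In the activation and costimulation list 16 higher and 7 lower of 25 were called, with a median of 1.70, or 1.62 with genes at 0 set at their bound. SLAMF7 (ENSG00000026751, chromosome 1, 160739057 to 160754821, plus strand), a SLAM-family receptor, measured 21.7, 20.2 and 20.9 CPM in the untreated libraries and 1021, 1046 and 989 CPM with IgM (log2 5.61, SE 0.039, adjusted p = 1.74e-95). LY9, of the same family, rose from 2.07 ± 0.335 to 179 ± 1.34 CPM (log2 6.45, SE 0.073, adjusted p = 5.78e-75). TFRC, the transferrin receptor of growing cells, rose from 327 ± 5.98 to 1274 ± 4.85 CPM (log2 1.96, SE 0.029, adjusted p = 6.61e-71). The costimulatory ligands CD86 (log2 -0.14, SE 0.056, adjusted p = 0.0214) and CD80 (log2 -0.16, SE 0.079, adjusted p = 0.0572) changed far less, and for CD80 the test did not pass and the groups overlapped. The CD80 value passed without untreated replicate 3 (adjusted p = 0.0426) or IgM replicate 1 (0.0178). The CD86 call was lost without untreated replicate 2 (adjusted p = 0.0775), untreated replicate 3 (0.0562) or IgM replicate 3 (0.0610).

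Class II antigen presentation rose at its surface chains. The list counted 13 higher and 7 lower of 20 with a median of 0.65. HLA-DRA rose from 237 ± 7.11 to 804 ± 12.8 CPM (log2 1.76, SE 0.029, adjusted p = 3.39e-67), HLA-DRB1 from 117 ± 1.02 to 606 ± 9.36 CPM (log2 2.38, SE 0.031, adjusted p = 5.80e-75) and HLA-DQB1 from 21.5 ± 1.67 to 195 ± 6.71 CPM (log2 3.18, SE 0.045, adjusted p = 1.90e-72). HLA-DQA1 rose by 2.43 and HLA-DRB5 by 1.80 on the log2 scale, and these polymorphic genes can share reads. Class I genes had no common direction, 9 higher and 9 lower of 21 with a median of -0.034. Within it, HLA-E (1.28) rose, while the immunoproteasome subunits PSMB9 (-2.17) and PSMB8 (-1.54) and the loading factor TAPBP (-0.99) fell.

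The receptor's own signalling chain was lower at many steps. The list of proximal components counted 11 higher and 19 lower of 31 called, 10 of the falls at 2-fold or more, with a median of -0.57. CD79B (ENSG00000007312, chromosome 17, 63928740 to 63932354, minus strand), the signalling chain of the receptor, measured 479, 466 and 483 CPM in the untreated libraries and 77.9, 76.5 and 79.7 CPM with IgM (log2 -2.61, SE 0.033, adjusted p = 1.59e-75). CD79A, the partner chain, rose from 757 ± 17.6 to 1091 ± 10.7 CPM (log2 0.53, SE 0.028, adjusted p = 8.53e-31), so the ratio of the pair changed: the authors' mean RPKM values, which are scaled by gene length, were 429 and 563 for CD79A untreated and with IgM, and 195 and 29.1 for CD79B. SYK (ENSG00000165025, chromosome 9, 90801787 to 90898549, plus strand), the kinase recruited to these chains, measured 264, 257 and 261 CPM in the untreated libraries and 39.3, 36.0 and 35.7 CPM with IgM (log2 -2.82, SE 0.041, adjusted p = 1.24e-69). BLK, a SRC-family kinase, fell from 183 ± 3.37 to 42.2 ± 1.38 CPM (log2 -2.11, SE 0.041, adjusted p = 3.40e-62), PIK3CD, the lymphoid PI3K catalytic subunit, from 148 ± 0.595 to 32.9 ± 0.260 CPM (log2 -2.17, SE 0.043, adjusted p = 2.12e-61), and the adaptor DAPP1 from 45.6 ± 2.98 to 7.33 ± 0.639 CPM (log2 -2.63, SE 0.073, adjusted p = 2.63e-50). BTK fell by less (log2 -0.40, SE 0.040, adjusted p = 3.15e-15).

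Inhibitory receptors and phosphatases also fell more often than they rose, 7 higher and 14 lower of 21 with a median of -0.35. With library totals alone 4 were higher and 14 lower. FCGR2B, the inhibitory Fc receptor of B cells, fell from 12.6 ± 1.24 to 1.43 ± 0.143 CPM (log2 -3.13, SE 0.14, adjusted p = 1.24e-35), the lipid phosphatase gene INPP5D from 124 ± 0.787 to 58.1 ± 0.433 CPM (log2 -1.10, SE 0.040, adjusted p = 1.14e-41), and the adaptors PAG1 and SIT1 by 1.11 and 1.75 on the log2 scale. PTPN6, the phosphatase SHP-1, rose from 25.8 ± 1.63 to 61.8 ± 2.99 CPM (log2 1.26, SE 0.052, adjusted p = 1.17e-37), as did the coreceptor CD72 (1.20 ± 0.153 to 5.13 ± 0.904 CPM, log2 2.09, SE 0.18, adjusted p = 3.33e-18). CD22 was nearly level (log2 -0.14, SE 0.029, adjusted p = 7.86e-06). Calcium and NFAT genes counted 9 higher and 11 lower of 23 with a median of -0.083. NFATC1, the autoregulated NFAT factor, rose from 138 ± 3.63 to 349 ± 8.23 CPM (log2 1.33, SE 0.034, adjusted p = 1.26e-50), whereas the calcium sensor STIM2 (-0.95), the kinase CAMK4 (-1.47) and the calcium channel gene ITPR3 (-0.58) fell.

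Most immunoglobulin constant segments fell, IGHM by little. The mu chain gene IGHM fell from 9853 ± 346 to 8085 ± 73.3 CPM (log2 -0.29, SE 0.028, adjusted p = 1.09e-15), and its groups did not overlap. Of 14 tested constant segments 3 were higher and 11 lower, with a median of -1.43. IGHG3 fell from 34.4 ± 1.53 to 6.48 ± 0.777 CPM (log2 -2.41, SE 0.080, adjusted p = 1.02e-44), IGHG1 by 1.41 and IGHD by 0.60 on the log2 scale, and IGHA1 rose from 2.96 ± 0.654 to 14.8 ± 0.391 CPM (log2 2.33, SE 0.11, adjusted p = 3.40e-33). IGLL5 fell from 206 ± 2.47 to 66.1 ± 3.73 CPM (log2 -1.64, SE 0.038, adjusted p = 1.96e-56). These segments resemble one another closely, and the split of reads among them is uncertain.

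Germinal center and B lineage genes fell as lists. Germinal center genes counted 7 higher and 21 lower of 30 with a median of -0.79, 14 of the falls at 2-fold or more. BCL6 (ENSG00000113916, chromosome 3, 187721377 to 187745727, minus strand), the master repressor of the germinal center programme, measured 563, 543 and 551 CPM in the untreated libraries and 125, 123 and 128 CPM with IgM (log2 -2.14, SE 0.032, adjusted p = 4.53e-71). MYBL1 fell from 67.4 ± 4.27 to 13.8 ± 0.888 CPM (log2 -2.29, SE 0.061, adjusted p = 1.16e-51), CD38 from 131 ± 1.65 to 37.0 ± 1.40 CPM (log2 -1.82, SE 0.041, adjusted p = 7.24e-57), and the E-protein TCF3 from 771 ± 17.9 to 356 ± 5.17 CPM (log2 -1.11, SE 0.029, adjusted p = 2.87e-52). ID3, which blocks E proteins, rose from 40.1 ± 2.80 to 257 ± 2.55 CPM (log2 2.69, SE 0.042, adjusted p = 5.75e-63). B lineage markers counted 3 higher and 11 lower of 14 with a median of -1.19. PAX5 (ENSG00000196092, chromosome 9, 36833275 to 37034185, minus strand), the factor that maintains B cell identity, measured 746, 738 and 737 CPM in the untreated libraries and 226, 219 and 231 CPM with IgM (log2 -1.72, SE 0.030, adjusted p = 7.80e-66). MS4A1, the CD20 gene, fell from 868 ± 23.3 to 439 ± 12.2 CPM (log2 -0.98, SE 0.030, adjusted p = 5.03e-45), FCRLA by 1.71, and VPREB3, a surrogate light chain partner, from 49.3 ± 3.13 to 2.09 ± 0.193 CPM (log2 -4.56, SE 0.10, adjusted p = 4.15e-59).

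Plasma cell and secretory genes counted 18 higher and 5 lower of 23 with a median of 0.70. The largest rise in the list was of the surface receptor SLAMF7 (5.61), given above, while the surface markers CD38 (-1.82) and TNFRSF17 (-1.78) fell. PRDM1 (ENSG00000057657, chromosome 6, 106086320 to 106109939, plus strand), which encodes BLIMP1, measured 9.75, 9.08 and 8.38 CPM in the untreated libraries and 72.9, 66.5 and 64.4 CPM with IgM (log2 2.90, SE 0.063, adjusted p = 4.08e-58). IRF4 rose from 401 ± 4.72 to 849.7 ± 7.23 CPM (log2 1.08, SE 0.027, adjusted p = 2.41e-53). XBP1, the secretory regulator, rose by less, from 223 ± 4.65 to 271 ± 4.08 CPM (log2 0.28, SE 0.031, adjusted p = 9.14e-14). SDC1, the CD138 gene, fell from a low level, 0.588 ± 0.232 to 0.222 ± 0.106 CPM (log2 -1.39, SE 0.49, adjusted p = 0.00868), a call lost without untreated replicate 1 (adjusted p = 0.0921) or IgM replicate 2 (0.0734). BCL6 and PRDM1 thus moved in opposite directions, and on the authors' RPKM scale BCL6 went from 79.3 to 16.4 and PRDM1 from 1.21 to 8.27.

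Most innate sensors were lower. Toll-like receptors and adaptors counted 1 higher and 15 lower of 19 with a median of -1.07. TLR10 fell from 57.8 ± 1.61 to 15.3 ± 0.881 CPM (log2 -1.93, SE 0.059, adjusted p = 2.96e-47), UNC93B1, the chaperone of endosomal receptors, from 57.3 ± 1.31 to 14.2 ± 1.002 CPM (log2 -2.001, SE 0.060, adjusted p = 1.38e-47), and the shared adaptor MYD88 from 57.8 ± 3.79 to 25.5 ± 0.565 CPM (log2 -1.18, SE 0.053, adjusted p = 3.82e-35). Interferon response genes counted 7 higher and 11 lower of 22 with a median of -0.97, but the oligoadenylate synthetases moved against the list: OAS3 rose from 32.1 ± 1.54 to 215 ± 4.85 CPM (log2 2.75, SE 0.041, adjusted p = 1.57e-70), OAS2 by 2.39 and OAS1 by 2.40 on the log2 scale. BST2, a tethering factor, fell from 39.9 ± 1.05 to 6.77 ± 0.942 CPM (log2 -2.56, SE 0.078, adjusted p = 3.56e-47). Fc receptor-like and leukocyte immunoglobulin-like receptors moved both ways, 4 higher and 8 lower of 12. FCRL1 (-2.66), FCRL2 (-3.09), FCRL3 (-1.28) and FCGR2C (-2.85) fell, whereas LILRA4 was at least 32.7-fold higher and LILRB3 went from 3 to 135 counts (ratio 51.9, 95% interval 17.4 to 255). The receptors of the latter family can share reads.

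Survival genes moved both ways, with 17 higher and 11 lower of 29 tested and a median of 0.41. On the authors' RPKM scale, which allows levels of different genes to be compared, the antiapoptotic transcripts untreated and with IgM were 50.3 and 192 for BCL2, 279 and 195 for MCL1, 45.7 and 115 for BCL2A1 and 51.3 and 20.02 for BCL2L1. MCL1 fell from 1433 ± 12.2 to 1098 ± 9.88 CPM (log2 -0.38, SE 0.026, adjusted p = 1.37e-23). Of the proapoptotic BH3-only genes, HRK rose from 3.21 ± 0.181 to 65.0 ± 1.93 CPM (log2 4.34, SE 0.081, adjusted p = 3.39e-63) and BIK from 93.5 ± 2.87 to 195 ± 2.29 CPM (log2 1.06, SE 0.034, adjusted p = 1.83e-45), while BBC3 (PUMA) fell from 9.33 ± 0.761 to 4.35 ± 0.669 CPM (log2 -1.11, SE 0.13, adjusted p = 1.04e-12). BIRC5, survivin, fell from 147 ± 2.15 to 53.4 ± 2.02 CPM (log2 -1.46, SE 0.039, adjusted p = 1.78e-51). The p53 targets did not move as a group, 12 higher and 10 lower of 23 with a median of 0.15. CDKN1A (0.63) and MDM2 (0.72) rose, and FDXR (-2.83), RRM2B (-1.73) and DDB2 (-1.34) fell.

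Cell cycle genes fell while genes of ribosome production rose. G1/S and replication genes counted 3 higher and 27 lower of 32 with a median of -0.51, and G2/M genes 3 higher and 25 lower of 30 with a median of -0.36. E2F2 fell from 178 ± 4.61 to 30.6 ± 0.730 CPM (log2 -2.54, SE 0.043, adjusted p = 3.37e-66), UHRF1, which maintains DNA methylation, from 189 ± 2.19 to 61.2 ± 1.03 CPM (log2 -1.62, SE 0.037, adjusted p = 8.00e-57), and thymidine kinase, TK1, from 179 ± 2.69 to 63.9 ± 1.77 CPM (log2 -1.48, SE 0.037, adjusted p = 1.76e-53). The mitotic genes PLK1 and TOP2A fell by less, with PLK1 at 395 ± 7.69 to 282 ± 6.58 CPM (log2 -0.49, SE 0.031, adjusted p = 5.81e-26) and TOP2A at 387 ± 14.7 to 272 ± 2.99 CPM (log2 -0.51, SE 0.032, adjusted p = 9.58e-25). The deepest fall in the G2/M list was -1.46 on the log2 scale. CCNB1 rose (log2 0.35, SE 0.032, adjusted p = 6.95e-17). CDC25A, the phosphatase that opens S phase, was one of 3 G1/S genes higher, from 88.8 ± 1.41 to 185 ± 4.97 CPM (log2 1.06, SE 0.035, adjusted p = 7.18e-45). CCND3, the D cyclin of germinal center cells, fell from 95.8 ± 4.89 to 20.2 ± 1.63 CPM (log2 -2.25, SE 0.053, adjusted p = 9.83e-56) and the inhibitor CDKN2C from 153 ± 1.88 to 30.8 ± 0.735 CPM (log2 -2.31, SE 0.044, adjusted p = 2.14e-62).

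Ribosome biogenesis genes counted 38 higher and 2 lower of 40, 14 of them at 2-fold or more, with a median of 0.83. NPM1, nucleophosmin, measured 710.4, 752 and 726 CPM in the untreated libraries and 1639, 1621 and 1606 CPM with IgM (log2 1.15, SE 0.028, adjusted p = 3.84e-54). RRP12 rose from 61.7 ± 1.96 to 172 ± 7.46 CPM (log2 1.48, SE 0.038, adjusted p = 7.67e-53), the helicase DDX21 from 159 ± 5.35 to 369 ± 5.29 CPM (log2 1.21, SE 0.032, adjusted p = 1.19e-51) and HEATR1 from 209 ± 2.08 to 480.1 ± 4.76 CPM (log2 1.20, SE 0.030, adjusted p = 1.03e-53). Cytosolic ribosomal protein genes rose by less, 23 higher and 2 lower of 30 with a median of 0.29 and none at 2-fold, RPS9 the farthest named (log2 0.68, SE 0.028, adjusted p = 4.54e-38). Mitochondrial ribosomal protein genes counted 24 higher and 1 lower of 28 with a median of 0.35, and translation factors 25 higher and 5 lower of 32 with 0.46. EIF1 rose from 284 ± 3.17 to 801 ± 14.1 CPM (log2 1.49, SE 0.029, adjusted p = 8.06e-62), and PDCD4, an inhibitor of translation initiation, from 23.1 ± 2.35 to 77.5 ± 1.60 CPM (log2 1.75, SE 0.053, adjusted p = 1.63e-47). Among MYC partners and targets, 13 higher and 5 lower of 20 were called, with the MYC antagonists MXD3 (-2.56) and MXD4 (-2.59) lower and MXD1 (1.74) higher.

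**Figure D3:**
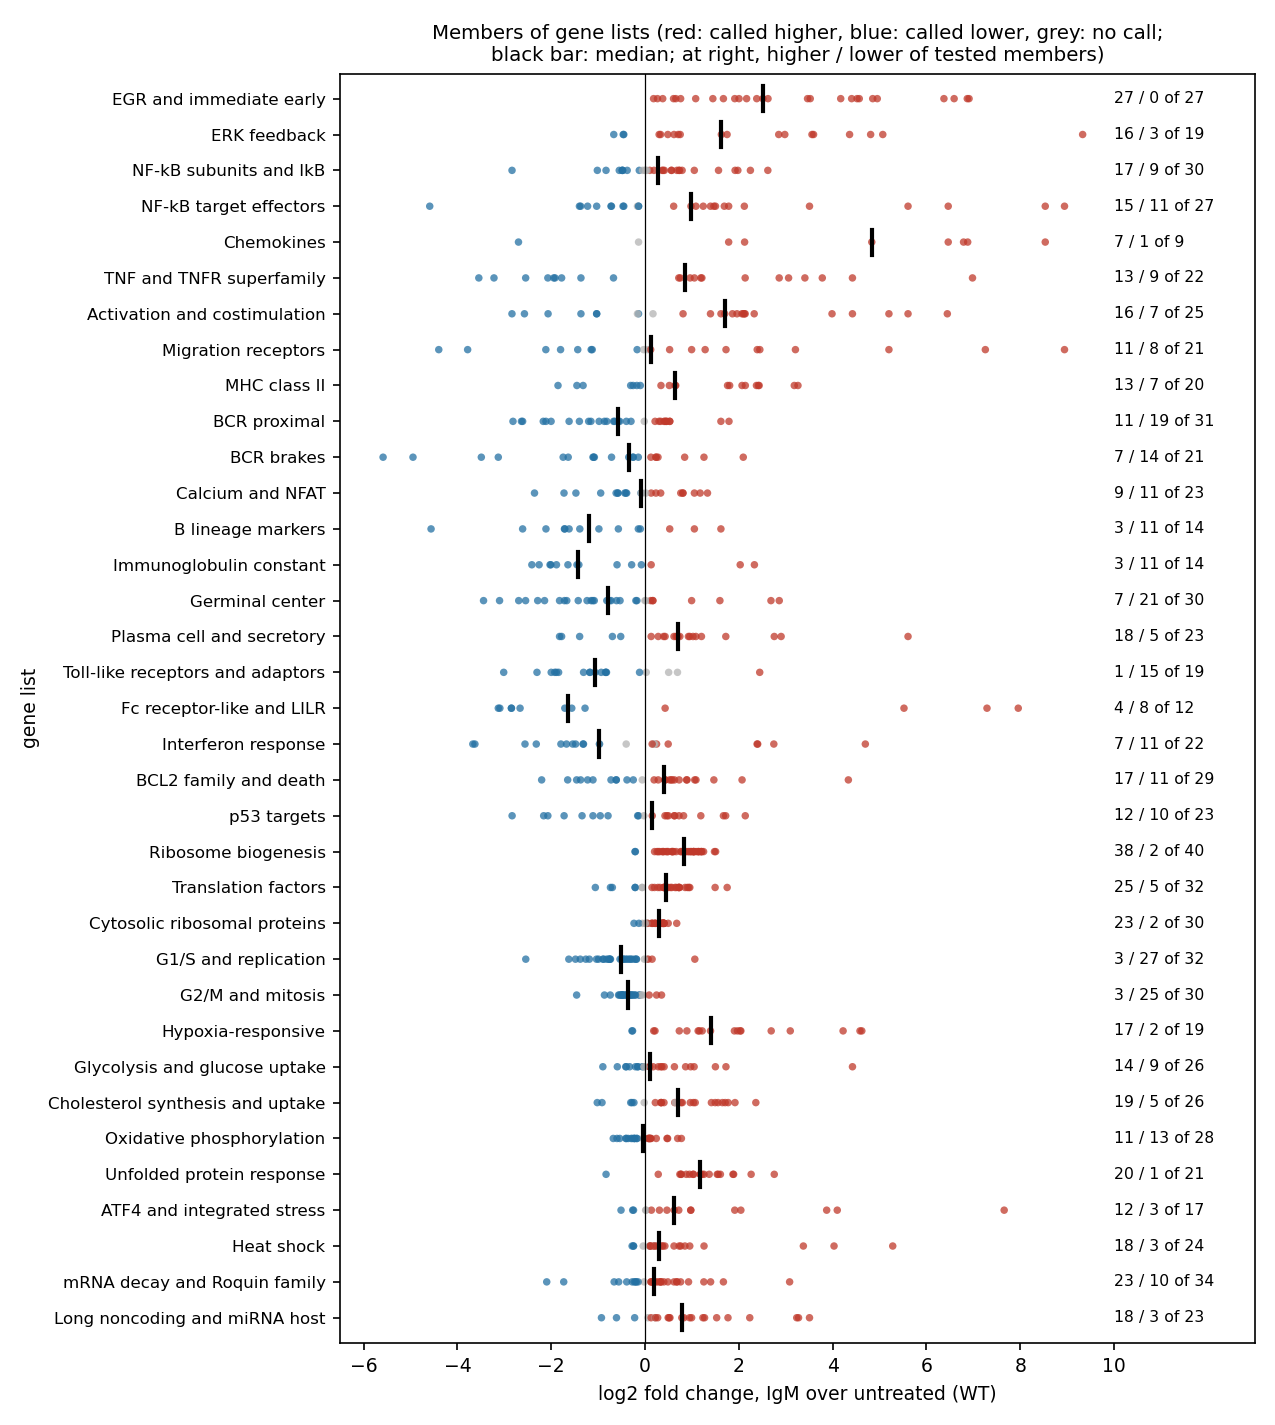
Log2 change (IgM over untreated) of the tested members of selected gene lists in the WT cells; each point is 1 gene, the bar is the list's median and red and blue points were called higher and lower. The numbers at the right give members higher and lower of those tested. All 27 immediate early genes lie above 0, while 11 of 14 B lineage markers and 27 of 32 replication genes were lower; genes with few counts are drawn at fitted values.

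Metabolic lists differed in their counts, with hypoxia-responsive and cholesterol genes mostly higher and glycolysis genes going both ways. The glucose transporter SLC2A3 (ENSG00000059804, chromosome 12, 7919230 to 7936275, minus strand) measured 5.35, 5.96 and 6.02 CPM in the untreated libraries and 129, 122 and 122 CPM with IgM (log2 4.42, SE 0.063, adjusted p = 8.52e-72). The kinase HK2 rose from 66.0 ± 2.56 to 218 ± 5.42 CPM (log2 1.73, SE 0.039, adjusted p = 2.03e-53), but glycolysis as a list counted 14 higher and 9 lower of 26 with a median of 0.10 that turned to -0.037 with library totals alone. Genes that respond to hypoxia counted 17 higher and 2 lower of 19 with a median of 1.40. The repressor BHLHE40 rose from 11.1 ± 0.592 to 275 ± 7.78 CPM (log2 4.62, SE 0.052, adjusted p = 7.80e-72) and the peptide hormone ADM from 60.3 ± 2.29 to 225 ± 1.83 CPM (log2 1.91, SE 0.042, adjusted p = 8.18e-43). BNIP3 fell (log2 -0.27, SE 0.061, adjusted p = 7.49e-05). Cholesterol genes counted 19 higher and 5 lower of 26 with a median of 0.71. INSIG1, the sterol-sensing brake, rose from 123 ± 0.673 to 632 ± 7.39 CPM (log2 2.36, SE 0.030, adjusted p = 2.93e-75). In fatty acid synthesis, 11 higher and 5 lower of 19, FASN rose from 893 ± 31.9 to 2014 ± 48.3 CPM (log2 1.17, SE 0.031, adjusted p = 1.31e-43) and the desaturase SCD from 264 ± 5.45 to 515 ± 5.78 CPM (log2 0.96, SE 0.029, adjusted p = 2.94e-47).

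Amino acid transporters counted 10 higher and 5 lower of 17 with a median of 0.27, 4 of the rises and 3 of the falls at 2-fold or more. SLC7A5 (ENSG00000103257, chromosome 16, 87830023 to 87869488, minus strand), the large neutral amino acid transporter, measured 1034, 968 and 961 CPM in the untreated libraries and 2814, 2832 and 2834 CPM with IgM (log2 1.52, SE 0.029, adjusted p = 3.28e-60). Its partner SLC3A2 rose from 225 ± 8.25 to 821 ± 23.2 CPM (log2 1.86, SE 0.030, adjusted p = 5.52e-68). SLC1A4 fell from 426 ± 3.06 to 176 ± 0.672 CPM (log2 -1.28, SE 0.029, adjusted p = 3.78e-56). The 3 enzymes of serine synthesis, which belong to the serine and one-carbon list, fell: PHGDH from 258 ± 7.16 to 117 ± 5.10 CPM (log2 -1.14, SE 0.034, adjusted p = 5.12e-48), PSAT1 from 41.5 ± 2.17 to 12.0 ± 1.75 CPM (log2 -1.80, SE 0.071, adjusted p = 1.03e-36) and PSPH from 20.5 ± 1.28 to 9.95 ± 0.953 CPM (log2 -1.04, SE 0.082, adjusted p = 2.34e-20). That whole list was even, 13 higher and 12 lower of 26, with a median of 0.044 that turned to -0.091 with library totals alone. Oxidative phosphorylation genes counted 11 higher and 13 lower of 28 with none at 2-fold, and the 13 mitochondrially encoded mRNAs 4 higher and 4 lower, the largest named change being 0.28 for MT-ND3.

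Endoplasmic reticulum chaperones rose together. The unfolded protein response list counted 20 higher and 1 lower of 21, 14 of the rises at 2-fold or more, with a median of 1.18. HSPA5 (ENSG00000044574, chromosome 9, 125234853 to 125241330, minus strand), the chaperone BiP, measured 518, 510.3 and 498 CPM in the untreated libraries and 2319.8, 2561 and 2446 CPM with IgM (log2 2.26, SE 0.029, adjusted p = 7.11e-75). HSP90B1 (ENSG00000166598, chromosome 12, 103930107 to 103953645, plus strand), the chaperone GRP94, measured 198, 205 and 195 CPM in the untreated libraries and 1316, 1400.3 and 1323 CPM with IgM (log2 2.76, SE 0.032, adjusted p = 1.21e-73). DNAJB11 rose from 117 ± 4.26 to 357 ± 9.14 CPM (log2 1.61, SE 0.032, adjusted p = 6.54e-61), PDIA6, a disulfide isomerase, from 243 ± 4.07 to 580.3 ± 14.8 CPM (log2 1.26, SE 0.029, adjusted p = 9.22e-56), and the stress sensor EIF2AK3 (PERK) from 23.7 ± 1.13 to 86.8 ± 3.11 CPM (log2 1.88, SE 0.048, adjusted p = 1.87e-52). The promoters of HSPA5 and HSP90B1 are shown since both are known to carry repeated endoplasmic reticulum stress elements, which include the letters CCAAT. They are 300-base RefSeq windows on GRCh38.p14, 5′ to 3′ on the gene's strand, with CCAAT or its reverse complement in capitals.
HSPA5, chr9:125241294-125241593, minus strand: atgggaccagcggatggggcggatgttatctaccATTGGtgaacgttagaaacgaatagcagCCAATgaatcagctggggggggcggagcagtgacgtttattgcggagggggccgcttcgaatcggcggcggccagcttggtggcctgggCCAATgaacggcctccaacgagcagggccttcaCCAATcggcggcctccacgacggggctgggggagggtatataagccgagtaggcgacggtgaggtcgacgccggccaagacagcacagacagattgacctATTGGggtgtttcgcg
HSP90B1, chr12:103930160-103930459, plus strand: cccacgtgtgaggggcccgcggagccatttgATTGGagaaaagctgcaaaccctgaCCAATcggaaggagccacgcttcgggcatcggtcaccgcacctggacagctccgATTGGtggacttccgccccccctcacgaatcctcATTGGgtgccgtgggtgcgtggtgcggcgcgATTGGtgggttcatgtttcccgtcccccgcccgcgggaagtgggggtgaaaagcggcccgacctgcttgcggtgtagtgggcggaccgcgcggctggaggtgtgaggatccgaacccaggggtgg
Each window held 5 matches, and at least 1 was in 34.6% of all windows of this length. In HSPA5 they began 216, 188, 99 and 66 bases before the start and 34 after it, and in HSP90B1 219, 194, 140, 106 and 75 bases before it.

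The integrated stress list counted 12 higher and 3 lower of 17 with a median of 0.62. PPP1R15A (ENSG00000087074, chromosome 19, 48872392 to 48876057, plus strand), the GADD34 phosphatase subunit that reopens translation, measured 53.2, 48.8 and 50.5 CPM in the untreated libraries and 855, 873 and 881 CPM with IgM (log2 4.10, SE 0.035, adjusted p = 4.92e-89). DDIT3, which encodes CHOP, rose from 16.9 ± 0.600 to 246 ± 10.7 CPM (log2 3.87, SE 0.047, adjusted p = 6.00e-77). ATF4 rose from 387 ± 7.72 to 762 ± 5.84 CPM (log2 0.98, SE 0.028, adjusted p = 1.01e-48) and TRIB3 from 65.5 ± 2.52 to 129 ± 7.47 CPM (log2 0.97, SE 0.043, adjusted p = 2.26e-31). CHAC1, a glutathione-degrading enzyme gene, fell slightly and its groups overlapped (log2 -0.26, SE 0.089, adjusted p = 0.00618), and the call was lost without untreated replicate 1 (adjusted p = 0.101) or IgM replicate 1 (0.166).

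Cytosolic heat shock genes rose mostly by little, 18 higher and 3 lower of 24 with a median of 0.30, and a few stood out. HSPA6 (ENSG00000173110, chromosome 1, 161524540 to 161526910, plus strand), a strictly inducible HSP70 that can share reads with HSPA7, measured 0.636, 0.935 and 0.287 CPM in the untreated libraries and 27.1, 24.6 and 24.4 CPM with IgM (log2 5.28, SE 0.15, adjusted p = 5.74e-50). HSPB1, the small heat shock protein HSP27, rose from 1.68 ± 0.416 to 17.9 ± 1.63 CPM (log2 3.38, SE 0.13, adjusted p = 1.91e-40), SERPINH1, a collagen chaperone, from 0.190 ± 0.0676 to 3.15 ± 0.396 CPM (log2 4.03, SE 0.31, adjusted p = 1.27e-20) and DNAJB1 from 115 ± 3.55 to 274 ± 2.87 CPM (log2 1.26, SE 0.033, adjusted p = 7.85e-52). HSPA8, the constitutive family member, rose by 0.20 on the log2 scale. The HSPA6 promoter is shown for its heat shock elements (GAANNTTC, in capitals), in a RefSeq window on GRCh38.p14, 5′ to 3′.
HSPA6, chr1:161524290-161524589, plus strand: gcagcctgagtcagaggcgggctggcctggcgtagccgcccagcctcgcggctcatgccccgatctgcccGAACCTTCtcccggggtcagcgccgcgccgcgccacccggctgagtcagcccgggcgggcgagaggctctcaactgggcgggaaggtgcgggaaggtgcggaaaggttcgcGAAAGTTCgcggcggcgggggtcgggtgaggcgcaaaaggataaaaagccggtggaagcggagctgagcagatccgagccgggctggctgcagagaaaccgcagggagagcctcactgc
It held 2 matches, 180 and 69 bases before the start, and 6.77% of all windows held at least 1.

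Motif shares of promoters differed by a few percentage points between higher and lower genes, and by most for ETS. A window was found for 9693 of 11670 tested protein-coding genes (83.1%), for 84.2% of those higher and 82.3% of those lower. The ETS motif CCGGAAG, counted on both strands as were all motifs, was in 25.1% of the windows of higher genes, 15.6% of those of lower genes and 20.6% of all tested ones. The E-box CACGTG was in 12.0%, 8.75% and 10.4% of them, and the cyclic AMP response element in 4.25%, 2.51% and 3.43%. CCAAT was in 36.1%, 39.2% and 37.3%, the EGR motif in 14.6%, 16.4% and 15.2%, and the kB motif in 6.29%, 6.50% and 6.32%. Among genes at least 2-fold higher, of which 80.7% had a window, the ETS share was 14.97%, below that of all tested genes, and the EGR share 17.4%, above it. The E-box was in 12.4% of these windows, the cyclic AMP response element in 4.29%, CCAAT in 34.1% and the kB motif in 6.96%. Among genes at least 2-fold lower 79.0% had a window, too few for this description, which is void there. The shares of genes at least 2-fold higher are thus given without a lower counterpart. They do not show whether the gap between higher and lower genes held at 2-fold.

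**Figure D4:**
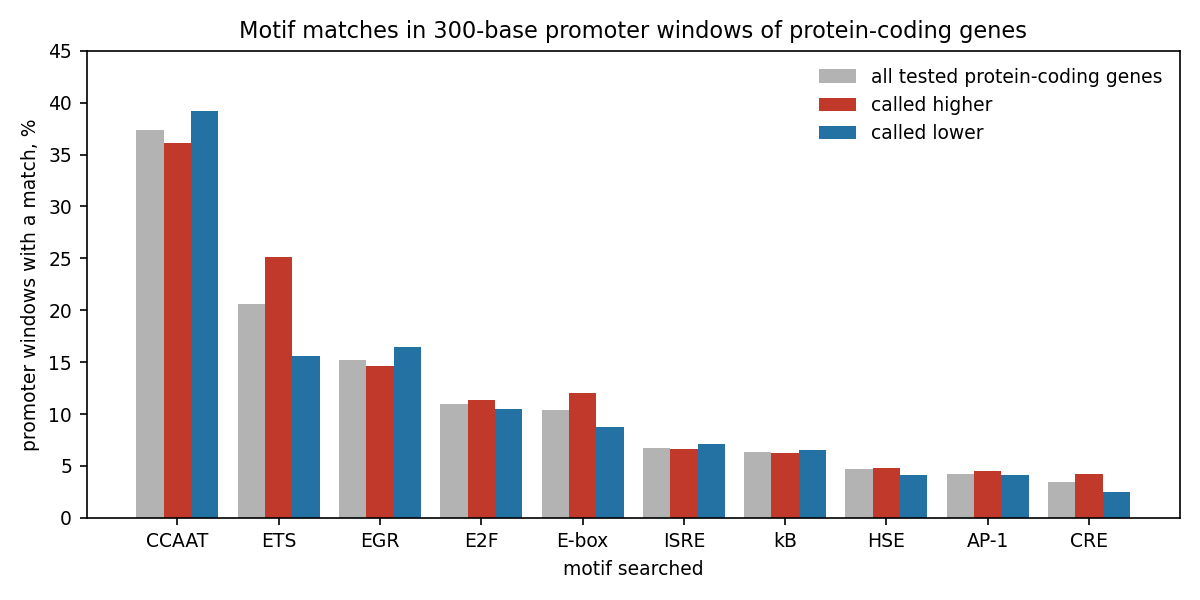
Share of promoter windows (250 bases before to 50 after the start, both strands) that hold each motif, among tested protein-coding genes called higher with IgM, called lower and all tested. The ETS motif was in 25.1% of windows of higher genes against 15.6% of lower ones, the widest gap of the motifs drawn. It was in 14.97% of windows of genes at least 2-fold higher, which are not drawn apart. No share of genes at least 2-fold lower is given beside it.

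Transcripts of mRNA decay factors, to which the Roquins belong, moved in several directions. The list counted 23 higher and 10 lower of 34 with a median of 0.18. RC3H2, whose counts cover the introduced and the cells' own transcripts alike, measured 109, 111 and 111 CPM in the untreated libraries and 120.0, 119.8 and 123 CPM with IgM (log2 0.13, SE 0.034, adjusted p = 4.95e-04), and with library totals alone it went to -0.0051 on the log2 scale. RC3H1 rose from 33.2 ± 0.669 to 63.1 ± 5.45 CPM (log2 0.93, SE 0.054, adjusted p = 3.56e-25). The endonuclease family split: ZC3H12C rose from 12.5 ± 0.427 to 106 ± 4.59 CPM (log2 3.08, SE 0.053, adjusted p = 3.78e-66), ZC3H12A (Regnase-1) rose by 0.62, and ZC3H12D fell from 46.4 ± 1.89 to 10.8 ± 1.39 CPM (log2 -2.10, SE 0.073, adjusted p = 6.10e-41). Of AU-rich element binding proteins, 13 higher and 6 lower of 20, ZFP36 (tristetraprolin) rose from 53.4 ± 3.45 to 215 ± 8.75 CPM (log2 2.004, SE 0.042, adjusted p = 4.43e-48) and ZFP36L1 from 77.6 ± 2.79 to 528 ± 5.43 CPM (log2 2.77, SE 0.034, adjusted p = 3.97e-76). ZFP36L2 fell (log2 -0.53, SE 0.035, adjusted p = 2.61e-24). The antiproliferative BTG2, which recruits the deadenylase CCR4-NOT, rose from 358 ± 10.2 to 1139 ± 28.2 CPM (log2 1.67, SE 0.028, adjusted p = 3.56e-66).

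Transcripts reported elsewhere as Roquin targets counted 15 higher and 2 lower of 18 with a median of 0.55. TNF, REL and CCR7 were among them, as given above. NFKBID, an atypical NF-kB inhibitor, rose from 137 ± 3.83 to 406 ± 11.1 CPM (log2 1.57, SE 0.031, adjusted p = 1.10e-60) and TNFAIP3, the deubiquitinase A20, from 38.6 ± 2.37 to 147 ± 3.61 CPM (log2 1.92, SE 0.042, adjusted p = 5.72e-58). TNFRSF4, the OX40 gene and a well studied target, was low, at 2.93 ± 0.630 to 4.84 ± 0.218 CPM (log2 0.72, SE 0.15, adjusted p = 1.75e-05). RNA levels alone do not separate synthesis from decay.

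Long noncoding RNAs, a mixed list that includes hosts of microRNAs, counted 18 higher and 3 lower of 23 with a median of 0.78. The 4 hosts that follow were among the rises. MIR155HG (ENSG00000234883, chromosome 21, 25561909 to 25575168, plus strand) measured 10.9, 12.1 and 10.6 CPM in the untreated libraries and 130.3, 129.8 and 125 CPM with IgM (log2 3.51, SE 0.054, adjusted p = 1.42e-69). MIR3142HG, the host of miR-146a, rose from 44.7 ± 1.75 to 433 ± 13.1 CPM (log2 3.27, SE 0.037, adjusted p = 1.18e-79), MIR22HG from 4.51 ± 0.828 to 42.8 ± 0.520 CPM (log2 3.23, SE 0.080, adjusted p = 8.55e-54) and MIR17HG, the host of the miR-17-92 cluster, from 7.25 ± 0.563 to 34.2 ± 3.85 CPM (log2 2.23, SE 0.084, adjusted p = 1.23e-37). Mature microRNAs were not measured. Their sequences, from RefSeq on GRCh38.p14, are shown because these 4 hosts all rose and carry different seeds (bases 2 to 8, in capitals), with members of the miR-17-92 cluster grouped by shared seed.
hsa-miR-155-5p: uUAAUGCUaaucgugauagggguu
hsa-miR-146a-5p: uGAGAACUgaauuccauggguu
hsa-miR-22-3p: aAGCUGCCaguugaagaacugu
hsa-miR-17-5p: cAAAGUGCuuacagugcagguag
hsa-miR-20a-5p: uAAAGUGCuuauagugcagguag
hsa-miR-18a-5p: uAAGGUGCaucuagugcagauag
hsa-miR-19a-3p: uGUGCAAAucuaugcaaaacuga
hsa-miR-19b-3p: uGUGCAAAuccaugcaaaacuga
hsa-miR-92a-3p: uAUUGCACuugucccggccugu
miR-17 and miR-20a share the seed AAAGUGC, and miR-19a and miR-19b share GUGCAAA.

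Other lists moved little or in parts. Lysosome and autophagy genes counted 12 higher and 7 lower of 25 with a median of 0.12, which turned to -0.014 with library totals alone. The sialidase NEU1 rose from 22.0 ± 1.13 to 128 ± 2.13 CPM (log2 2.54, SE 0.046, adjusted p = 1.50e-64) and LAMP1 from 158 ± 7.19 to 305 ± 7.47 CPM (log2 0.95, SE 0.032, adjusted p = 3.06e-44). Proteasome genes counted 13 higher and 5 lower of 27 with a median of 0.12 that turned to -0.0099, and FOXO-type quiescence genes 11 higher and 10 lower of 23 with a median of 0.073 that turned to -0.061. In the latter, IRS2, an insulin receptor substrate, rose from 18.3 ± 1.28 to 101 ± 4.76 CPM (log2 2.47, SE 0.053, adjusted p = 1.09e-55) and TSC22D1 fell from 23.6 ± 0.304 to 10.8 ± 0.217 CPM (log2 -1.13, SE 0.075, adjusted p = 1.23e-24). Chromatin modifiers mutated in lymphoma counted 13 higher and 8 lower of 25 with a median of 0.10 that turned to -0.036. TET2, a demethylase, rose from 24.8 ± 2.18 to 126 ± 0.109 CPM (log2 2.34, SE 0.047, adjusted p = 6.22e-61) and ARID5B from 19.0 ± 0.871 to 97.1 ± 1.93 CPM (log2 2.36, SE 0.049, adjusted p = 1.76e-59). The chromatin remodeller SMARCA4 fell (log2 -0.75, SE 0.029, adjusted p = 8.74e-40).

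Ion channel genes counted 5 higher and 9 lower of 17 with a median of -0.48. KCNH2, a potassium channel, fell from 72.6 ± 3.90 to 4.77 ± 0.404 CPM (log2 -3.92, SE 0.074, adjusted p = 5.65e-63) and KCNA3, the lymphocyte channel Kv1.3, from 8.38 ± 0.430 to 3.76 ± 0.230 CPM (log2 -1.15, SE 0.12, adjusted p = 5.14e-14). The proton channel HVCN1 rose from 23.9 ± 1.78 to 68.8 ± 0.975 CPM (log2 1.52, SE 0.050, adjusted p = 8.88e-45). Kelch-like adaptors of CUL3 ligases counted 7 higher and 11 lower of 21 with a median of -0.11. KLHL6, an adaptor of B cells, fell from 539 ± 12.5 to 329 ± 4.63 CPM (log2 -0.71, SE 0.029, adjusted p = 1.34e-38). KLHL14 fell from 6.74 ± 0.267 to 2.89 ± 0.480 CPM (log2 -1.23, SE 0.14, adjusted p = 4.10e-13). Among replication histones, 7 higher and 3 lower of 17, HIST1H1C rose from 20.5 ± 0.680 to 65.5 ± 1.71 CPM (log2 1.68, SE 0.052, adjusted p = 2.31e-46); these mRNAs mostly lack the poly(A) tail on which the libraries were selected.

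The response of the WT cells was then set against that of the Y691F cells with the interaction of construct and treatment, which tests the difference of the 2 responses itself. It passed for 3883 of 15112 genes (25.7%), with the WT change above the Y691F change in 1666 and below it in 2217. The direction of change was the same in both cells for 3174 of the 3883 and opposite for 709. Of genes higher with IgM in WT cells 29.5% differed in response, and of those lower 29.9%, beside 25.7% over all genes. The labels do not state whether a construct was carried by a clone or by a pool. The replicates of a group therefore need not stand for separately made cell lines. Whether these differences belong to the construct or to the cells that carried it was not tested.

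Immediate early genes often rose by more in WT cells: 16 of 27 tested passed the interaction, all 16 with the WT change above the Y691F change. EGR1 rose by 6.59 in WT and 4.20 in Y691F cells (difference of log2 2.39, SE 0.085, adjusted p = 4.27e-39), EGR3 by 4.52 and 2.07 (difference of log2 2.45, SE 0.18, adjusted p = 3.54e-20) and NR4A3 by 6.87 and 4.97 (difference of log2 1.90, SE 0.12, adjusted p = 3.05e-23). MYC rose in WT cells and fell in Y691F cells, where its log2 change was -0.31 (difference of log2 0.97, SE 0.11, adjusted p = 3.99e-12). The chemokines and CCR7 differed in the same sense: CCL3 by 3.03 (adjusted p = 4.53e-26), CCL4 by 2.24 (adjusted p = 1.35e-08) and CCR7 by 2.16 (adjusted p = 1.15e-21) on the log2 scale. For CCR7 the Y691F cells went from 3.57 ± 0.162 to 393 ± 5.65 CPM. TNF rose in WT cells and fell in Y691F cells, with a log2 change of -0.79 (difference of log2 2.03, SE 0.076, adjusted p = 1.28e-38), and TNFRSF14 by 3.78 and 0.91 (difference of log2 2.87, SE 0.13, adjusted p = 5.11e-33).

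Of 24 tested heat shock genes 16 passed the interaction, 10 with the WT change above the Y691F change and 6 below it. Those above included some of the largest differences of all genes, and of those below the farthest was HSPA8 (difference of log2 -0.28, SE 0.040, adjusted p = 1.63e-08). HSPA6 had a log2 change of 0.30 in Y691F cells, from 0.258 ± 0.157 to 0.321 ± 0.0620 CPM (difference of log2 4.98, SE 0.65, adjusted p = 9.48e-10). SERPINH1 was at 0.64 there (difference of log2 3.39, SE 0.60, adjusted p = 3.77e-06) and HSPB1 at 0.22 (difference of log2 3.16, SE 0.28, adjusted p = 1.73e-16). HSPA1A rose by 0.95 in WT cells and changed by -0.95 in Y691F cells (difference of log2 1.90, SE 0.071, adjusted p = 6.45e-39), and HSPA1B, which can share reads with it, by 0.76 and -0.97 (difference of log2 1.73, SE 0.045, adjusted p = 1.13e-46). DNAJB1 followed, at 1.26 and -0.27 (difference of log2 1.53, SE 0.050, adjusted p = 5.29e-43). HSPA1A, HSPA1B and DNAJB1 thus rose in WT cells and fell in Y691F cells, whereas HSPA6, SERPINH1 and HSPB1 did not pass the test there.

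The largest differences below the Y691F response were in RTN4R, a Nogo receptor gene, at 0.97 in WT and 3.77 in Y691F cells (difference of log2 -2.80, SE 0.34, adjusted p = 1.25e-10), GATA4 (difference of log2 -2.76, SE 0.27, adjusted p = 4.82e-14), the amino acid transporter SLC7A8 (difference of log2 -2.71, SE 0.33, adjusted p = 1.31e-10), the activin antagonist FST (difference of log2 -2.64, SE 0.23, adjusted p = 1.50e-16) and CALCRL (difference of log2 -2.31, SE 0.16, adjusted p = 2.42e-21). GATA4 and SLC7A8 fell in WT cells (-0.78 and -1.73) and rose in Y691F cells (1.98 and 0.98). FST did not pass the test in WT cells (log2 0.30, adjusted p = 0.161), where its groups overlapped, and rose by 2.94 in Y691F cells. CALCRL rose by 0.65 in WT and 2.96 in Y691F cells. These 5 genes were low in WT cells, with group means from 0.55 CPM (SLC7A8 with IgM) to 6.98 CPM (CALCRL with IgM). VGF rose in both, by 7.498 and 9.28 (difference of log2 -1.79, SE 0.35, adjusted p = 2.98e-05). Of the B cell genes, BCL6 fell by more in WT than in Y691F cells, -2.14 against -1.32 (difference of log2 -0.82, SE 0.044, adjusted p = 3.67e-28), as did SYK (difference of log2 -0.38, SE 0.059, adjusted p = 1.73e-07) and BLK (difference of log2 -0.82, SE 0.056, adjusted p = 2.07e-22). BCL2 rose by 2.07 and 1.40 (difference of log2 0.67, SE 0.038, adjusted p = 5.55e-27). For CD79B the interaction did not pass the test, with -2.61 and -2.62 (difference of log2 0.0066, SE 0.049, adjusted p = 0.948), and the same held for ZFP36 (difference of log2 -0.12, SE 0.060, adjusted p = 0.154).

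**Figure D5:**
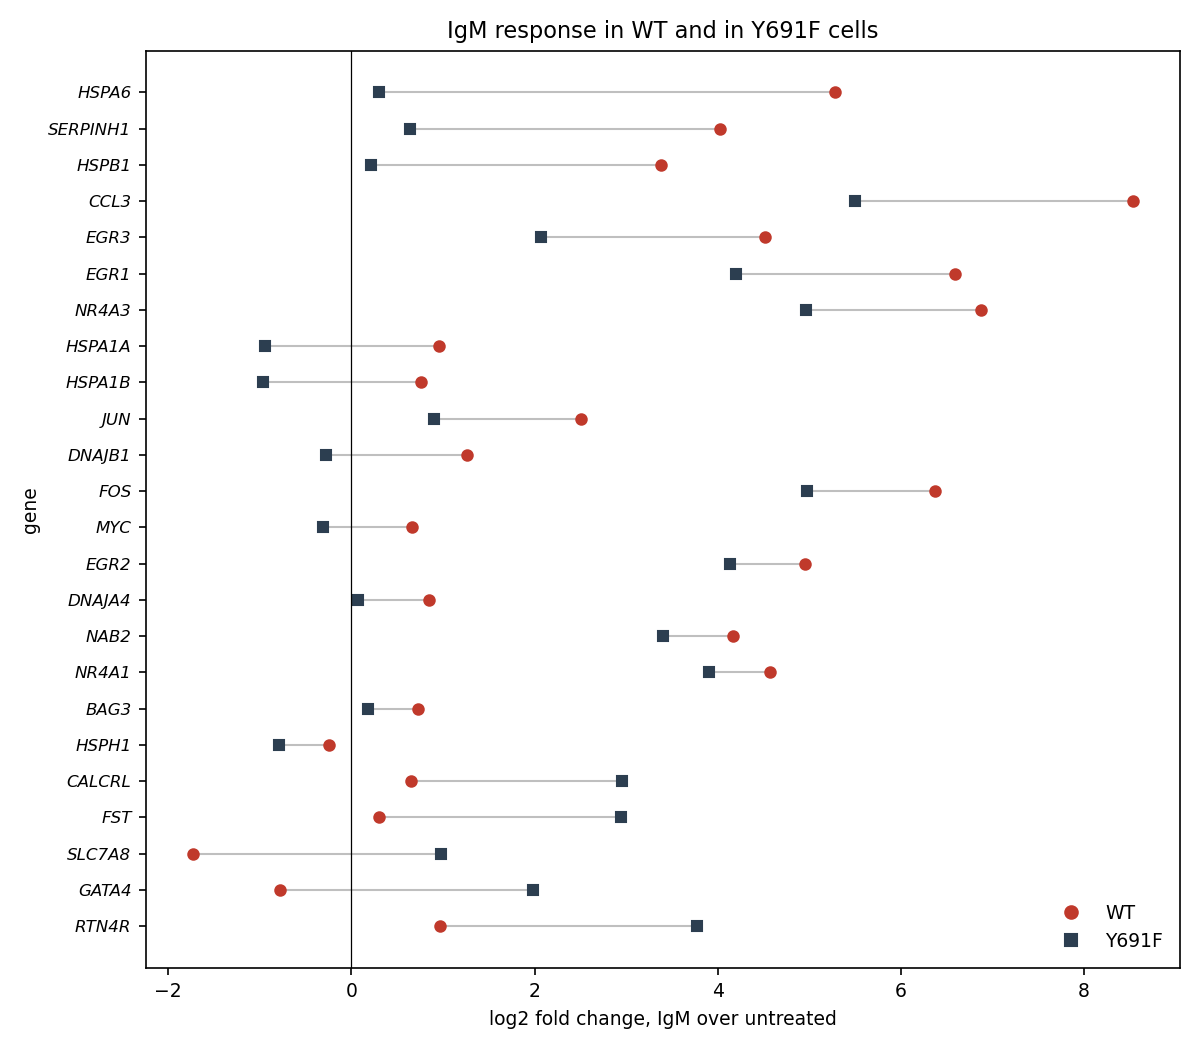
Log2 change with IgM (x axis) in WT cells (circles) and in Y691F cells (squares) for genes that passed the interaction. Drawn are those with the largest differences in each direction, and members of the heat shock and immediate early lists also called in WT cells. These list members were ranked by the signed difference, WT minus Y691F, from the top. That choice favours members with the WT change above the Y691F change. LILRA6 is left out for its few counts. HSPA6 lies at 5.28 in WT and 0.30 in Y691F cells, and RTN4R at 0.97 and 3.77.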

How the data were processed

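Strand-specific (dUTP) polyA+ RNA-seq libraries were read from the deposited gene table, which holds whole-number read counts per Ensembl gene and the authors' RPKM values. STAR 2.5.0b, DESeq2 and GRCh38 are named, without roles, per the submitters' processing notes (GRCh38 is the build of all coordinates). Neither the labels nor the file header name the counter, its strand setting or its gene annotation. Samples were grouped by title and treatment label. Deposited counts entered all tests, and the authors' RPKM values, whose length and read total are not stated, served to compare levels between genes. Genes passing filterByExpr were fitted with edgeR 4.0.16 (R 4.3.3, TMM, robust quasi-likelihood, 2-sided) over all 12 libraries with 4 group means and no covariates. That filter keeps genes with enough counts in a single group, so genes near 0 in one group are tested only if high in another. Contrasts were IgM against untreated in WT cells and its difference from that in Y691F cells, adjusted by Benjamini-Hochberg over 15112 genes and called at 0.05. The script was tested on simulated data. SD values are over 3 libraries, and p-values measure the spread between these samples.

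The members, the 59 lists and the named genes were chosen with earlier results of these data known. Named genes were, among those called with separated libraries and a mean of at least 1 CPM, the 15 largest rises and falls by log2 change and, among 2-fold changes, the 10 by CPM. Also named were genes with at most 3 counts in one group, the first 4 members and the 6 smallest p of each list, all members of lists with 12 or fewer, the 5 largest interactions each way, and RC3H2, RC3H1, TNFAIP3 and KLHL6. Some genes that meet this rule are not reported here. Intervals of ratios are exact binomial (Clopper-Pearson) at 95%. Alternatives used other scalings, filters and tests (DESeq2 1.42.0, limma 3.58.1), the WT libraries alone, a replicate block, and each library left out. Library codes share one prefix, and replicate 3 of each WT group has a code of another form, so both were also left out together.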

Additional observations from a re-analysis of the deposited data

Results flagged for a closer look

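The response to IgM differed between WT and Y691F cells, by the test of the interaction, for 3883 genes. Whether the differences belong to the construct or to the cells that carried it was not tested. Among the genes named for the size of their change in WT cells, the difference of the log2 changes, WT minus Y691F, was 2.16 for CCR7, 3.03 for CCL3, 2.29 for PDCD1, 1.99 for TVP23A and 0.89 for GEM, all of which rose by more in WT cells, as their choice by the WT change favours. VGF rose by less in WT cells (-1.79).

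The genes that follow were chosen as the largest falls in WT cells, a choice that favours a deeper fall there than in Y691F cells. Over all genes lower in WT cells, 1736 passed the interaction, 1410 of them with the deeper fall in WT cells. The differences among the chosen genes were -1.73 for NAV2, -1.04 for IGLV6-57, -1.47 for SYT9, -2.19 for ADGRB2, -1.51 for PDZRN4, -1.19 for WNK2, -1.71 for SMPD3, -0.61 for SUSD3 and -2.06 for LZTS1.

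The 5 largest differences above the Y691F response included LILRA6 (7.11), HSPA6 (4.98), SERPINH1 (3.39) and HSPB1 (3.16), next to CCL3. LILRA6 had 1 count in the untreated WT libraries and 189 with IgM, so its fitted difference depends on the model's treatment of counts near 0 and is no measure of size. The 5 largest below it were RTN4R (-2.80), GATA4 (-2.76), SLC7A8 (-2.71), FST (-2.64) and CALCRL (-2.31).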

How the results depend on the processing

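Counts over the tested genes stayed within 1.5 times the reported ones under the other scalings, tests and designs, and without each library. The exceptions came from a filter of at least 5 CPM in 3 libraries, which left 10653 genes tested and gave 806 at least 2-fold higher and 1338 at least 2-fold lower, against 1346 and 2393; fewer genes of low level were tested. The total of called genes was 11614 with DESeq2 size factors, 11418 with library totals, 10844 with the DESeq2 Wald test, 11587 with limma-voom, 12048 without a filter and 11347 in the 6 WT libraries alone. Leaving out libraries gave 10970 to 11356 called genes, 5499 to 5662 higher and 5471 to 5707 lower, with 1350 to 1422 at least 2-fold higher and 2420 to 2510 at least 2-fold lower. The difference from Y691F cells gave 3102 to 3980 called genes under the other settings and 3384 to 3828 without 1 library. Of the 11623 called genes, 10467 were called also with library totals, 10456 of them in the same direction, and 10975 to 11123 without 1 WT library. Of 273 named genes, RC3H2 alone turned, from 0.13 to -0.0051 with library totals (adjusted p = 0.894); that scaling moves the median of all genes by -0.13. Of 1416 recomputed counts of list members, 23 moved by more than 1.5 times. Among these 23 was the count of higher inhibitory receptors and phosphatases, from 7 to 4 with library totals.

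The labels state no pairing of replicates with the same number. Their deviations from the group means correlated at -0.0089, -0.0155 and -0.0103, and those of unlike numbers at 4.67e-05 to 0.0107. With 3 replicates centred on their own mean, these values cannot settle whether a batch was shared. With the replicate block the fit called 11622 genes over 12 libraries (5813 higher and 5809 lower, 1346 and 2393 at 2-fold) and 11283 in the 6 WT libraries (5638 higher and 5645 lower, 1220 and 2169 at 2-fold), and 3898 genes for the difference from Y691F cells; 11599 of the 11623 genes were called in both 12-library fits. The calls for CD86, SDC1 and CHAC1 were lost without single libraries, and RC3H2 with library totals; the other named genes that had passed kept their calls in every setting in which they were tested. CD80, which had not passed, did so in some settings (adjusted p from 0.000798 with library totals). Depth limits genes with 3 or fewer counts in a group, for which only bounds or ratios were given.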

Other observations

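The annotated gene classes moved differently, beside 38.4% higher and 38.5% lower over all tested genes. Protein-coding genes were 4896 higher and 4746 lower of 11670, with a median log2 change of 0.0078. Antisense genes were 105 higher and 370 lower of 719 (median -0.57), and long intergenic noncoding RNAs 117 higher and 250 lower of 578 (median -0.37). Processed pseudogenes, the reverse-transcribed copies of mRNAs, went the other way, with 442 higher and 99 lower of 1149 (median 0.26); they can share reads with their parent genes, and the part of this sharing was not tested. Without the counter's strand setting, reads of an antisense gene and its partner cannot be told apart.

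Variable segments of immunoglobulin genes were 0 higher and 25 lower of 36 tested, with a median of -1.59. IGLV6-57 fell from 15.9 ± 0.776 to 0.318 ± 0.102 CPM, and IGLV1-40 had 97 counts untreated and 1 with IgM (ratio 84.0, 95% interval 14.7 to 3353, untreated over IgM). IGLV1-47 had 69 counts untreated and 0 with IgM, at least 19.9-fold lower.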
